A study of Mus musculus with 24 samples.

Results

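Mouse ESCs that were driven out of the naive state while heme synthesis was blocked and hemin was supplied (EpiLC+SA+H) were compared with cells driven out of it with neither compound (EpiLC), to find the transcripts that did not return to their untreated level. The 2 groups hold 8 of the 24 RNA sequencing libraries of the study, 4 per group, and were taken by their labels, and all genes of the count table entered the test. The cells were of the ES-E14TG2a mESC line in N2B27 medium. EpiLC+SA+H cells were kept for 48 hr on fibronectin (15 μg/ml) in bFGF (12 ng/ml) and activin A (20 ng/ml) with 0.5 mM succinylacetone (SA) and 10 μM hemin. EpiLC cells were kept for the same 48 hr in bFGF and activin A on fibronectin, without SA or hemin. EpiLC+SA cells, which received SA but no hemin, are given beside the comparison. Naive cells, which were kept in LIF with CHIR99021 (3 μM) and PD0325901 (1 μM), with SA and hemin for 48 hr (2iL+SA+H) or without them (2iL), form a second comparison that shares no library with the first. None of the 6 groups received hemin without SA, so what hemin did by itself and what it left of the effect of SA cannot be told apart.

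SA inhibits ALAD, the second enzyme of heme synthesis, and hemin supplies the end product from outside. Heme is sensed in several ways. When heme is short, the kinase HRI (Eif2ak1) phosphorylates eIF2α, general translation falls and the transcription factor ATF4 is made, which turns on genes of amino acid synthesis, one-carbon metabolism and tRNA charging in what is called the integrated stress response. When heme is plentiful, it binds the repressor BACH1, which then leaves the DNA, so that NRF2 can turn on genes of heme breakdown and antioxidant defence such as Hmox1. During the exit from the naive state, mESCs silence factors such as Nanog, Tfcp2l1 and Esrrb and gain transcripts of the post-implantation epiblast such as Fgf5 and Otx2.

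The totals were 2131987 to 8465889 counts per library in EpiLC+SA+H (median 6011469) and 2883740 to 7844336 in EpiLC (median 5464640). EpiLC+SA+H replicate 1 and EpiLC replicate 3 were the shallow libraries, each under 3000000 counts. Levels are CPM, counts scaled to a common library size with TMM factors, and a gene counted as called where the quasi-likelihood test of edgeR gave it an adjusted p under 0.05, among the 16067 genes left by a filter on low counts. The mean log2 CPM over 23 genes of the primed and formative state was 5.23 to 5.91 in EpiLC+SA+H and 5.87 to 6.57 in EpiLC, against 2.41 to 3.11 in 2iL, so both groups carried the transcripts their labels name. EpiLC replicate 2 stood apart from its group in naive genes, with a mean log2 CPM over 28 of them of 3.63, against 5.07 to 5.22 in the other 3 EpiLC libraries. Mitochondrial transcripts took 6.998 to 8.68% of counts in EpiLC+SA+H and 5.78 to 7.90% in EpiLC.

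Few single genes differed past the threshold once hemin was present. In EpiLC+SA+H against EpiLC 7 genes rose (0.0436% of those tested) and 3 fell (0.0187%), each with an edgeR adjusted p of 0.0414. The genes that fell were Pck2, Mthfd1l and Snhg1. Those that rose included Gm13580, Dlgap3, Hhex, Gstm1, Smtnl2 and Dbt. At an adjusted p under 0.10 there were 46 genes, 24 higher and 22 lower, and at an unadjusted p under 0.05 there were 878 higher (5.46%) and 796 lower (4.95%). By comparison, EpiLC+SA against EpiLC had 1942 higher (12.1%) and 2535 lower (15.8%) genes past the adjusted threshold of 0.05 (edgeR), and 1689 higher (10.5%) and 956 lower (5.95%) were found for EpiLC+SA+H against EpiLC+SA. Both of these comparisons share 4 libraries with the one described here, and neither is independent of it. The called genes lay close to the threshold, with Ddx3x and Hist1h1e just outside it at an adjusted p of 0.0507 (edgeR).

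The number of calls depended on the tool and on single libraries. DESeq2 called 126 genes, 61 higher (0.499% of those it tested) and 65 lower (0.531%), which include all 10 of edgeR. Without the 3 shallow libraries of the study, 2 of which belong to these groups, edgeR called 210 genes, 112 higher (0.685%) and 98 lower (0.6%), of which 9 were among the 10, and 72 genes were called in both of these ways. Leaving out EpiLC+SA+H replicate 1, 2, 3 or 4 gave 45, 1, 0 and 6 calls, and leaving out EpiLC replicate 1, 2, 3 or 4 gave 18, 0, 12 and 5. None of the 10 genes changed sign under the 15 alternatives tried, and each passed the threshold in 5 (Pck2) to 9 of them. The gene not called without the shallow libraries was Pck2.

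Pck2 encodes the mitochondrial form of phosphoenolpyruvate carboxykinase, which makes phosphoenolpyruvate from oxaloacetate and is a known target of ATF4. It lies on chromosome 14 of GRCm38 from 55540266 to 55551242. The EpiLC+SA+H libraries had 16.5, 14.03, 34.5 and 20.0 CPM, and the EpiLC libraries had 40.8, 80.7, 115 and 72.7 CPM. All EpiLC+SA+H libraries were below all EpiLC libraries, which holds for 2.26% of genes, and the log2 fold change was -1.84 ± 0.36 (SE, edgeR adjusted p = 0.0414). The EpiLC+SA libraries overlapped those of EpiLC+SA+H, at 12.8 to 23.4 CPM, with a log2 fold change of -1.94 against EpiLC (edgeR adjusted p = 2.69e-04). Pck2 passed the threshold without EpiLC replicate 1 (edgeR adjusted p = 0.0400) and missed it without any other single library (0.0578 to 0.154). In EpiLC+SA+H against EpiLC+SA its log2 fold change was 0.09 (edgeR adjusted p = 0.894). In naive cells it had 47.2, 68.4, 53.4 and 92.0 CPM in 2iL+SA+H and 121, 81.7, 68.5 and 40.5 CPM in 2iL, and these groups overlapped.

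Mthfd1l encodes the mitochondrial enzyme that releases formate for the cytosolic one-carbon pool (chromosome 10 of GRCm38, 3973118 to 4167081). It had 118, 120, 117 and 109 CPM in EpiLC+SA+H, and 167, 260, 247 and 196 CPM in EpiLC. The groups did not overlap, and the log2 fold change was -0.90 ± 0.18 (SE, edgeR adjusted p = 0.0414). The EpiLC+SA libraries had 92.7 to 128 CPM, close to those with hemin. Snhg1, a non-coding host gene of small nucleolar RNAs (chromosome 19, 8723475 to 8726443), had another pattern. It had 193, 260, 212 and 258 CPM in EpiLC+SA+H and 361, 538, 499 and 307 CPM in EpiLC, a log2 fold change of -0.88 ± 0.17 (SE, edgeR adjusted p = 0.0414). With SA alone Snhg1 was at 378 to 529 CPM, within the range of the EpiLC libraries, and its log2 fold change in EpiLC+SA+H against EpiLC+SA was -0.98 (edgeR adjusted p = 2.87e-04).

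Of the 6 genes described here that rose, 3 had a higher level in every 2iL library than in any EpiLC or EpiLC+SA+H library, a contrast that was not tested. Dlgap3 encodes a scaffold protein of synapses (chromosome 4 of GRCm38, 127169204 to 127237022). It had 5.81, 11.4, 21.9 and 8.21 CPM in EpiLC+SA+H, against 2.26, 2.38, 6.58 and 2.7 CPM in EpiLC, and 47.1 to 58.5 CPM in 2iL. One pair of libraries overlapped, EpiLC replicate 3 being above EpiLC+SA+H replicate 1, and these are the 2 shallow libraries. Smtnl2 (chromosome 11, 72389164 to 72411713) had 21.3, 30.5, 26.8 and 31.9 CPM in EpiLC+SA+H, against 14.5, 13.6, 13.2 and 17.1 CPM in EpiLC, and 97.0 to 117 CPM in 2iL. Gm13580, annotated as an antisense transcript (chromosome 2, 60411525 to 60412579), had 2.91, 5.54, 9.15 and 4.21 CPM in EpiLC+SA+H, against 1.94, 1.29, 0.774 and 1.35 CPM in EpiLC, and 25.0 to 34.7 CPM in 2iL. It rested on few reads, 6 to 59 per library in EpiLC+SA+H and 2 to 12 in EpiLC, and the strand setting of the count is not given in the sources used here, so its reads cannot be told apart from those of a gene on the other strand. Neither Smtnl2 nor Gm13580 had overlapping groups, and 1.52% of genes had none in this direction. The log2 fold changes were 1.93 ± 0.38 for Dlgap3, 0.93 ± 0.17 for Smtnl2 and 1.99 ± 0.34 for Gm13580 (SE). All 3 genes also rose with SA alone, with log2 fold changes against EpiLC of 1.64 for Dlgap3, 1.23 for Smtnl2 and 2.498 for Gm13580 (adjusted p of 0.00218 or less from edgeR).

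The other 3 genes described were Dbt, Gstm1 and Hhex. Dbt encodes the E2 core of the dehydrogenase that breaks down branched-chain keto acids (chromosome 3 of GRCm38, 116513070 to 116549981). It had 45.5, 48.9, 39.7 and 46.1 CPM in EpiLC+SA+H, against 27.6, 22.4, 26.3 and 24.9 CPM in EpiLC, a log2 fold change of 0.83 ± 0.16 (SE, edgeR adjusted p = 0.0414). Its level with hemin lay between the EpiLC libraries and the EpiLC+SA libraries, which had 59.97 to 68.1 CPM. Gstm1, a glutathione transferase gene (chromosome 3, 108012255 to 108017973), had the same order of groups, with 48.4, 64.1, 67.2 and 40.1 CPM in EpiLC+SA+H, 88.5 to 109 CPM in EpiLC+SA, and 25.8, 25.5, 24.4 and 36.6 CPM in EpiLC. It belongs to a cluster of similar genes, and reads that mapped to several loci were discarded by the authors, so its level is less certain than that of the others. Hhex encodes a homeobox transcription factor (chromosome 19, 37434810 to 37440731) and had 11.6, 8.32, 11.9 and 7.58 CPM in EpiLC+SA+H, against 3.23, 3.02, 3.10 and 4.17 CPM in EpiLC. The EpiLC+SA libraries had 4.01 to 8.90 CPM and overlapped those with hemin. For both Gstm1 and Hhex all EpiLC+SA+H libraries were above all EpiLC libraries, with log2 fold changes of 0.96 ± 0.19 and 1.501 ± 0.29 (SE).

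**Figure D1:**
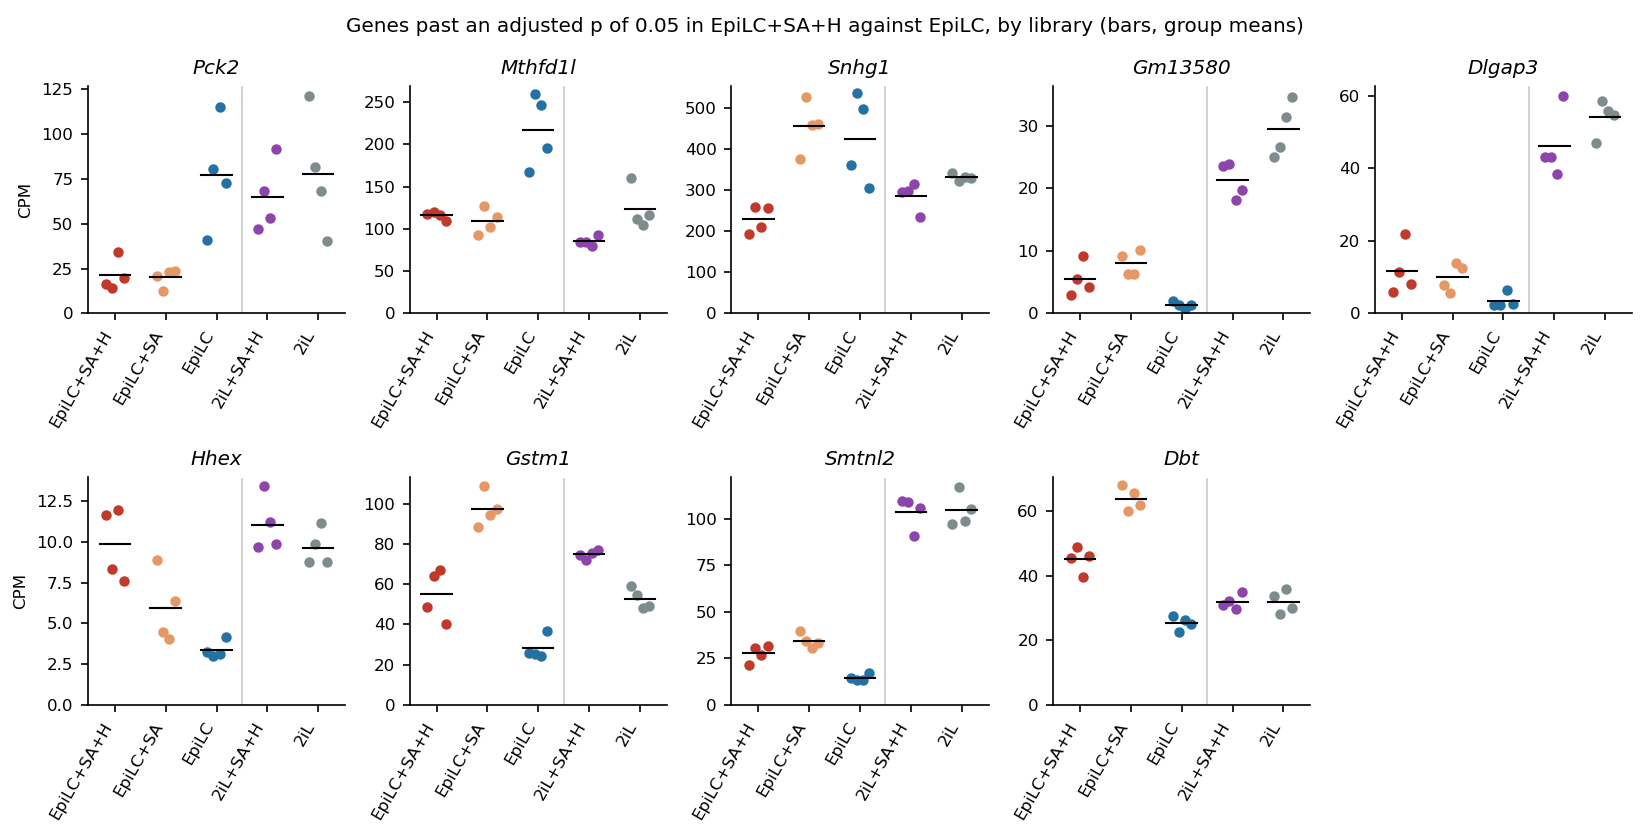
Each panel is 1 of 9 genes past an adjusted p of 0.05 in EpiLC+SA+H against EpiLC. The y axis is CPM from 0, each point is a library, each bar is the mean of 4 libraries, and naive groups stand to the right of the line. Pck2 and Mthfd1l are low both with SA and hemin and with SA alone, where the libraries overlap, and Gm13580, Dlgap3 and Smtnl2 sit far below their level in 2iL.

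Transcripts of integrated stress response genes were lower as a group. The study reports more eIF2α phosphorylation and less translation with SA, and reads both as activation of this response. RNA counts measure neither. Of 48 tested members of a list of ATF4 targets and response genes, 2 fell (Pck2 and Mthfd1l), 29 were lower at an unadjusted p under 0.05 from edgeR and 0 were higher, against 4.95% and 5.46% of all genes. In 14 members the EpiLC+SA+H libraries lay below all EpiLC libraries (2.26% of all genes), and 40 of 48 had a negative log2 fold change. The median log2 fold change was -0.85, against 0.02 over all genes tested. The mean log2 CPM of the list was 4.58, 4.92, 5.34 and 5.01 in EpiLC+SA+H replicates 1 to 4, against 5.52, 5.92, 5.69 and 5.91 in EpiLC replicates 1 to 4, without overlap. EpiLC+SA libraries had 4.71 to 5.03, and the list's median log2 fold change was -0.91 for EpiLC+SA against EpiLC and -0.01 for EpiLC+SA+H against EpiLC+SA. DESeq2 called 10 members lower and 0 higher, and edgeR without the shallow libraries called 7 lower and 0 higher. Of all genes, 0.531% and 0.6% were called lower in these 2 settings, and 0.0187% fell with edgeR on all libraries. With each library left out in turn, 23 to 31 members were lower at an unadjusted p under 0.05, with a median from -0.94 to -0.66. In a population of cells, fewer cells that express these genes and less of their RNA per cell cannot be told apart.

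Trib3 encodes a pseudokinase that is induced by ATF4 and restrains it. It had 25.2, 15.8, 27.3 and 12.6 CPM in EpiLC+SA+H, against 41.4, 70.4, 87.9 and 51.3 CPM in EpiLC, a log2 fold change of -1.65 ± 0.34 (SE, edgeR adjusted p = 0.0584). Nars, the cytosolic asparaginyl-tRNA synthetase gene, had 315, 305, 377 and 288 CPM in EpiLC+SA+H, against 456, 783, 601 and 624 CPM in EpiLC, a log2 fold change of -0.94 ± 0.20 (SE, edgeR adjusted p = 0.0605). In both genes the groups did not overlap, and neither passed the threshold. Chac1, Stc2, Atf4, Ddit3, Asns, Cth and Cdsn below, and the genes with a promoter match, were singled out after their values were seen. Chac1, a glutathione-degrading enzyme gene and a sensitive ATF4 target, had 9.68, 6.85, 15.8 and 11.7 CPM in EpiLC+SA+H, against 54.5, 36.0, 55.4 and 87.5 CPM in EpiLC (log2 fold change of -2.40 ± 0.52, SE, with an edgeR adjusted p = 0.070). It was lower still with SA alone, at 0.844 to 3.56 CPM. Stc2, a secreted glycoprotein gene, had 1.45, 6.03, 4.03 and 3.16 CPM in EpiLC+SA+H, against 12.3, 17.9, 12.8 and 17.4 CPM in EpiLC, again with no overlap. In Trib3, Nars, Chac1 and Stc2 no EpiLC+SA+H library reached the EpiLC level. They were picked by a small p or after their values were seen, and 14 of the 48 list members lay apart in this way.

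The transcript of Atf4 itself had 445, 190, 278 and 208 CPM in EpiLC+SA+H, against 386, 438, 1105 and 484 CPM in EpiLC, a log2 fold change of -1.11 ± 0.34 (SE, edgeR adjusted p = 0.251). Its groups overlapped through EpiLC+SA+H replicate 1. Ddit3, which encodes the stress factor CHOP, had 17.9, 56.1, 48.1 and 17.8 CPM in EpiLC+SA+H, against 29.2, 187, 302 and 80.4 CPM in EpiLC (log2 fold change of -2.07 ± 0.68, SE, with an edgeR adjusted p = 0.283), and these overlapped. With SA alone Ddit3 was not low, at 101 to 242 CPM, and its log2 fold change in EpiLC+SA+H against EpiLC+SA was -2.37 (edgeR adjusted p = 0.0199). Not all list members were lower. Asns, the asparagine synthetase gene and a classical ATF4 target, had a log2 fold change of -0.30 ± 0.26 (SE, edgeR adjusted p = 0.700), and Cth and Cdsn had log2 fold changes of 0.50 and 1.02 (unadjusted p = 0.149 and 0.121, edgeR). Of 9 genes for eIF2α kinases and phosphatase subunits, 0 were lower or higher at an unadjusted p under 0.05 (edgeR). Of all genes, 4.95% were lower and 5.46% higher at that level, so 0 of 9 is near that share. Eif2ak1, which encodes the heme-regulated kinase HRI, had 35.6 to 41.2 CPM in EpiLC+SA+H and 27.1 to 36.5 CPM in EpiLC (log2 fold change of 0.19 ± 0.15, SE).

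Promoters of this list were searched for the ATF4 and C/EBP composite sequence TTGCATCA, on either strand, in RefSeq windows of GRCm38.p6 from 250 bases before to 50 bases after each start. The search covered the 40 members with a window of the 48. The sequence was in 9 of them (22.5%), against 1.03% of all 27025 genes with a window. All 9 were among the 27 members with a window that were lower at an unadjusted p under 0.05, and 0 of the 13 other members with a window held it. The 9 genes were Aars, Atf3, Chac1, Jdp2, Nupr1, Pycr1, Slc1a4, Slc7a11 and Vldlr, with log2 fold changes from -2.40 for both Slc7a11 and Chac1 to -0.56 for Aars. Of these, Slc7a11 had under 2 CPM in all libraries of both groups. None of the 10 called genes held it, of which 8 had a window. A match shows only that these letters are there. The windows of Chac1, Vldlr, Nupr1 and Slc1a4 are shown 5′ to 3′ on the strand of the gene, with the composite sequence in capitals, because they place it at different distances from the start, 193, 200, 110 and 4 bases before it.
Chac1 (chr2:119350992-119351291, plus strand): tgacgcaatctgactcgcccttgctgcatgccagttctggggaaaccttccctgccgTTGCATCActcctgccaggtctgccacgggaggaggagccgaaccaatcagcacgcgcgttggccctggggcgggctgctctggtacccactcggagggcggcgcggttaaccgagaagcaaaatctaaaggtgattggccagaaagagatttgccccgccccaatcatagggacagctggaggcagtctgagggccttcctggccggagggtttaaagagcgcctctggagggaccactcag
Vldlr (chr19:27216770-27217069, plus strand): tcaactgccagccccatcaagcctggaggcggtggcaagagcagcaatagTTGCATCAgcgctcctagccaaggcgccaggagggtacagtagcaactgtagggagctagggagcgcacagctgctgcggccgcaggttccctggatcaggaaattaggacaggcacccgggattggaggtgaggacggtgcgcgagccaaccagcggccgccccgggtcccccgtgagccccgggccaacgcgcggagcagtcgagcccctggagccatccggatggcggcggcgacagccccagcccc
Nupr1 (chr7:126625421-126625720, minus strand): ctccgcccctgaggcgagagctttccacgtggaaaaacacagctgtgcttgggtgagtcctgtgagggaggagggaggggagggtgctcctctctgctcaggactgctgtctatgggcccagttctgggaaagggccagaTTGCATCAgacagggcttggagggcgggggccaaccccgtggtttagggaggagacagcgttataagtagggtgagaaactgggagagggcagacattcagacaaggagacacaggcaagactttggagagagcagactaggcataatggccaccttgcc
Slc1a4 (chr11:20332664-20332963, minus strand): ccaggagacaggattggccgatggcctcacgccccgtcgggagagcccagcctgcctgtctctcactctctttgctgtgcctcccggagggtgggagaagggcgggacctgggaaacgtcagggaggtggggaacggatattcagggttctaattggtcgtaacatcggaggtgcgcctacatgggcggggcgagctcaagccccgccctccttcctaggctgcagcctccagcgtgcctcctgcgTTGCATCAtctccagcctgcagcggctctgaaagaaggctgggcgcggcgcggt

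Vldlr, a lipoprotein receptor gene whose match is shown above, had 2.91, 3.10, 4.50 and 3.16 CPM in EpiLC+SA+H, against 10.0, 14.03, 10.1 and 11.04 CPM in EpiLC, with no overlap (log2 fold change of -1.70 ± 0.49, SE, with an edgeR adjusted p = 0.200). Slc1a4, a neutral amino acid transporter gene, had a log2 fold change of -0.87 ± 0.33 (SE) and Nupr1, a stress-induced chromatin regulator gene, of -1.14 ± 0.51 (SE). Both had overlapping groups. None of these genes passed the threshold when adjusted over all genes.

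**Figure D2:**
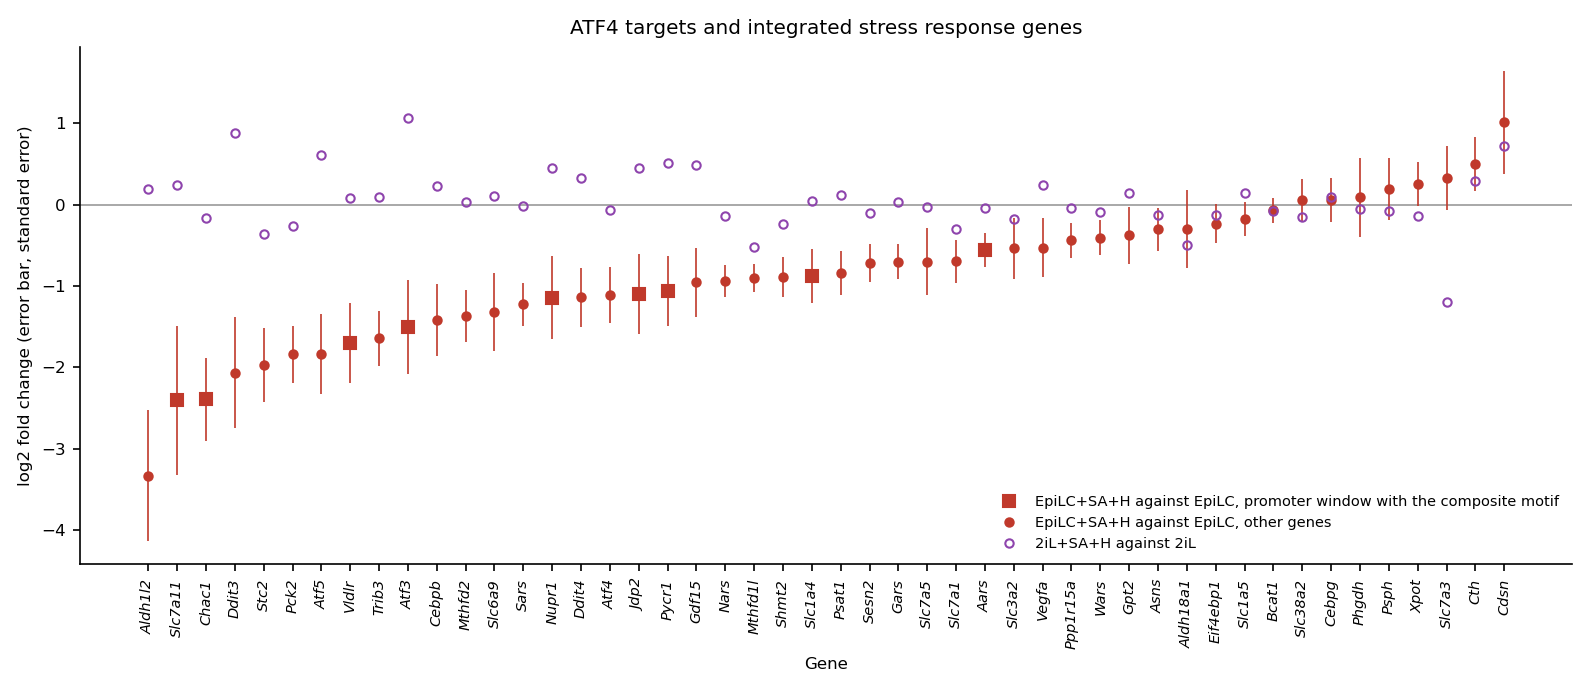
The log2 fold change of the 48 tested ATF4 list genes is plotted on the y axis, ordered along the x axis by their value in EpiLC+SA+H against EpiLC (filled, with standard errors). Squares mark genes whose promoter window holds the composite sequence, and open circles give 2iL+SA+H against 2iL. Filled symbols lie below 0 for 40 of 48 genes, with a median of -0.85, while the open circles have a median of 0.01.

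Genes of tRNA charging and part of one-carbon metabolism were lower too. Their lists share members with the ATF4 list, Nars, Sars, Mthfd2 and Shmt2 among them, and are not separate evidence. Of 20 cytosolic aminoacyl-tRNA synthetase genes, 9 were lower at an unadjusted p under 0.05 (edgeR) and 0 were higher, 8 had no overlap, and the median log2 fold change was -0.40. Over all genes 4.95% were lower and 5.46% higher at that level, and 2.26% lay lower with no overlap. Sars, the seryl-tRNA synthetase gene, had 295, 214, 261 and 160 CPM in EpiLC+SA+H, against 350, 593, 800 and 425 CPM in EpiLC (log2 fold change of -1.22 ± 0.26, SE, with an edgeR adjusted p = 0.070). Lars and Cars had log2 fold changes of -0.96 and -0.95 (standard errors 0.22 and 0.24), each with no overlap. Of 22 genes of serine, glycine and one-carbon metabolism, 6 were lower at an unadjusted p under 0.05 (edgeR) and 1 was higher, and the median was 0.08. Among the members that were lower were mitochondrial enzymes such as Mthfd2, with 212, 138, 213 and 157 CPM in EpiLC+SA+H, against 281, 407, 786 and 376 CPM in EpiLC (log2 fold change of -1.36 ± 0.32, SE, with an edgeR adjusted p = 0.0875). Shmt2, which makes glycine from serine in mitochondria, had a log2 fold change of -0.89 ± 0.24 (SE). Aldh1l2, a mitochondrial folate enzyme gene, was at 0 to 0.652 CPM in EpiLC+SA+H and 0.806 to 6.91 CPM in EpiLC. Of 24 genes of the ER unfolded protein response, 1 was lower and 2 were higher at an unadjusted p under 0.05 (edgeR), with a median of 0.04.

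The second group with a shift was that of naive pluripotency genes, which were higher. Of 28 genes, 18 were higher at an unadjusted p under 0.05 from edgeR and 0 were lower, against 5.46% and 4.95% of all genes, and the median log2 fold change was 0.96. No member passed the adjusted threshold in edgeR, while DESeq2 called 5 and edgeR without the shallow libraries called 5, with 0 lower in either. In these 2 settings 0.499% and 0.685% of all genes were called higher. In 3 members all EpiLC+SA+H libraries lay above all EpiLC libraries, against 1.52% of all genes. The list's mean log2 CPM was 5.17, 5.39, 6.27 and 6.02 in EpiLC+SA+H replicates 1 to 4, against 5.12, 3.63, 5.22 and 5.07 in EpiLC replicates 1 to 4, and the groups overlapped through EpiLC+SA+H replicate 1 and EpiLC replicate 3. Both groups were far below 2iL, at 7.21 to 7.42. Single libraries weighed on this shift: without EpiLC+SA+H replicate 3, 10 members were higher at an unadjusted p under 0.05 (median 0.64), and without EpiLC replicate 2, 12 were (median 0.72). Leaving out any other library gave 13 to 18. EpiLC+SA libraries had a list mean of 5.33 to 6.04.

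Nanog encodes a core factor of naive pluripotency and had 42.6, 107, 174 and 110 CPM in EpiLC+SA+H, against 36.6, 16.4, 60 and 28.1 CPM in EpiLC, a log2 fold change of 1.65 ± 0.36 (SE, edgeR adjusted p = 0.0797). The groups overlapped in 1 pair of libraries, EpiLC+SA+H replicate 1 and EpiLC replicate 3. Tcl1, an AKT coactivator gene of naive cells, had 30.5, 39.3, 123 and 38.9 CPM in EpiLC+SA+H, against 17.9, 3.89, 22.1 and 16.3 CPM in EpiLC, with no overlap (log2 fold change of 1.97 ± 0.41, SE, with an edgeR adjusted p = 0.0605). Both genes stayed below naive levels, at 332 to 409 CPM for Nanog and 102 to 127 CPM for Tcl1 in 2iL, apart from Tcl1 in EpiLC+SA+H replicate 3. Fbxo15 and Nr5a2 followed with log2 fold changes of 1.52 and 1.39 (standard errors 0.36 and 0.38). Tfcp2l1, Esrrb, Klf2 and Tbx3, naive transcription factor genes, had log2 fold changes of 0.85, 0.93, 0.81 and 0.98, with overlapping groups. Tbx3 had 27.6 to 78.4 CPM in EpiLC+SA+H, 105 to 192 CPM in EpiLC+SA and 6.91 to 37.6 CPM in EpiLC. The list's 2 negative log2 fold changes were those of Klf4 (-0.53) and Mkrn1 (-0.15). Klf4 had 27.1, 12.9, 50.9 and 19.8 CPM in EpiLC+SA+H, against 11.3, 6.69, 132 and 17.2 CPM in EpiLC. Its log2 fold change was -0.53 with all libraries and 1.22 without EpiLC replicate 3, and neither passed the test.

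Primed genes, most of which fell with SA alone, were less far below EpiLC with hemin. Of 23 genes of the primed and formative state, 7 were lower at an unadjusted p under 0.05 (edgeR) and 0 were higher, no member had groups without overlap, and the median log2 fold change was -0.57. That median was -1.71 in EpiLC+SA against EpiLC, where 18 of 23 genes fell, against 15.8% of all genes. In EpiLC+SA+H against EpiLC, 4.95% of all genes were lower and 5.46% higher at an unadjusted p under 0.05 (edgeR). With no overlap, 2.26% of all genes lay lower there and 1.52% higher. Otx2, a transcription factor gene of the epiblast, had 492, 695, 356 and 348 CPM in EpiLC+SA+H, against 592, 389, 891 and 486 CPM in EpiLC (log2 fold change of -0.32 ± 0.32, SE, with an edgeR adjusted p = 0.747). Fgf5, the growth factor gene that marks the post-implantation epiblast, had 26.1, 22.7, 10.2 and 9.47 CPM in EpiLC+SA+H, and 0 to 0.851 CPM in EpiLC+SA, against 37.1, 49.4, 31.4 and 13.0 CPM in EpiLC (for EpiLC+SA+H against EpiLC, log2 fold change of -0.96 ± 0.43, SE, with an edgeR adjusted p = 0.439). For both genes the groups overlapped. Zic2, Dnmt3a, Dnmt3b, Pou3f1 and Fgf15 had log2 fold changes of -0.58, -0.20, -0.91, -0.83 and -1.75 (standard errors 0.28, 0.24, 0.45, 0.42 and 0.61). Pim2, a serine/threonine kinase gene, was the lowest of the list, with 14.04, 19.7, 7.76 and 38.9 CPM in EpiLC+SA+H, against 97.9, 204, 8.90 and 104 CPM in EpiLC. Without EpiLC+SA+H replicate 3 or 4, or EpiLC replicate 1 or 2, the number of members lower at an unadjusted p under 0.05 was 3, 4, 4 and 4. Without the shallow libraries it was 10 (edgeR), with a median of -0.66. In that setting edgeR called 4 members lower (Dnmt3a, Lef1, Pim2 and Pou3f1), and DESeq2 on all libraries called 1 (Pim2), with 0 higher in either. Of all genes, 0.6% and 0.531% were called lower in these 2 settings.

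Of 23 genes of the Nodal and activin pathway, 2 were lower and 2 higher at an unadjusted p under 0.05 (edgeR), with a median of 0.08. Of all genes, 4.95% were lower and 5.46% higher at that level. Nodal, the ligand gene, had 64.4 to 96.8 CPM in EpiLC+SA+H, 5.10 to 23.9 CPM in EpiLC+SA and 46.0 to 86.8 CPM in EpiLC, with a log2 fold change of 0.15 ± 0.35 (SE) in EpiLC+SA+H against EpiLC. Lefty1, which encodes a secreted inhibitor of Nodal, had 138, 87.3, 105 and 29.6 CPM in EpiLC+SA+H, against 273, 548, 108 and 56.7 CPM in EpiLC, with overlapping groups (log2 fold change of -1.47 ± 0.68, SE, with an edgeR adjusted p = 0.456). Of the markers of other fates, 3 of 10 trophectoderm genes and 2 of 10 primordial germ cell genes were higher at an unadjusted p under 0.05 (edgeR), against 5.46% of all genes, and the values of both lists were positive. The lists share Tfap2c, and the germ cell list shares Prdm14 and Dppa3 with the naive list. Their summed level was 70.2 to 102 and 253 to 353 CPM in EpiLC+SA+H, against 49.2 to 77.9 and 177 to 290 CPM in EpiLC, and their part in the shift of naive genes was not tested. Of the 12 trophectoderm genes in the table, 10 passed the filter on low counts. At the same unadjusted p (edgeR), 2 of 7 neuroectoderm genes, 1 of 11 primitive endoderm genes and 1 of 5 fibroblast genes were higher and 0 were lower, while 3, 4 and 2 genes of these lists had negative values. Of 6 mesoderm and primitive streak genes, 0 were higher and 1 was lower, against 4.95% of all genes.

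**Figure D3:**
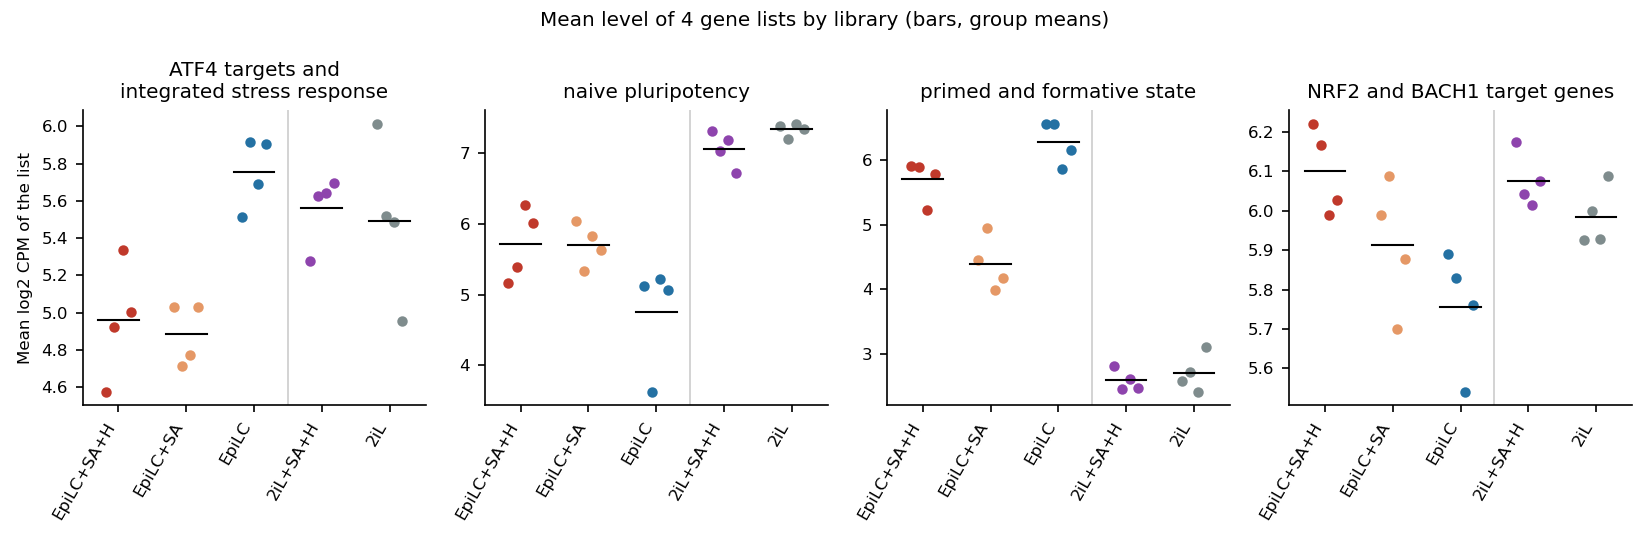
Each point is the mean log2 CPM of 1 gene list in 1 library, each bar is the mean of 4 libraries, and the naive groups stand right of the line. The ATF4 list is at 4.58 to 5.34 in EpiLC+SA+H and at 5.52 to 5.92 in EpiLC. The naive list overlaps between these groups and has EpiLC replicate 2 at 3.63.

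Genes that respond to heme and oxidants showed smaller shifts. Of 29 NRF2 and BACH1 target genes, 1 rose (Gstm1), 10 were higher and 1 was lower at an unadjusted p under 0.05 (edgeR), and the median log2 fold change was 0.28. Of all genes, 0.0436% rose, and 5.46% were higher and 4.95% lower at that unadjusted p. The list's mean log2 CPM was 5.99 to 6.22 in EpiLC+SA+H and 5.54 to 5.89 in EpiLC, with no overlap. The median was 0.11 without the shallow libraries and 0.17 without EpiLC+SA+H replicate 1. With all libraries, the list's median was 0.32 for EpiLC+SA against EpiLC and -0.06 for EpiLC+SA+H against EpiLC+SA. Slc48a1, which encodes the heme carrier HRG1, had 101, 39.3, 47.5 and 36.9 CPM in EpiLC+SA+H, against 28.1, 25.3, 17.8 and 25.7 CPM in EpiLC, with no overlap (log2 fold change of 1.18 ± 0.27, SE, with an edgeR adjusted p = 0.0862). DESeq2 called it, with an adjusted p of 0.00659. Hmox1, the heme oxygenase gene, had 94.4, 11.6, 13.2 and 11.8 CPM in EpiLC+SA+H, against 15.3, 34.3, 40.7 and 12.9 CPM in EpiLC. Its log2 fold change was 0.28 ± 0.52 (SE) with all libraries and -1.03 without EpiLC+SA+H replicate 1, which held 195 Hmox1 reads, and neither passed the test. Bach1 had a log2 fold change of -0.22 ± 0.33 (SE). Keap1, which encodes the adaptor that keeps NRF2 low, had 45.3 to 64.1 CPM in EpiLC+SA+H, 8.23 to 18.6 CPM in EpiLC+SA and 36.0 to 40.3 CPM in EpiLC, with no overlap between any of these groups. The letters TGACNNNGC, the core of the NRF2 and BACH1 element, were in 9 of the 23 list genes with a RefSeq window (39.1%), against 14% of all genes with one, on either strand. Among genes with a window, 16.8% of those tested and 30% of the ATF4 list also held TGACNNNGC. None of the called genes with a window did. This sequence and TTGCATCA can share bases where their ends meet.

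Of 21 glutathione transferase genes, 5 were higher and 0 lower at an unadjusted p under 0.05 (edgeR), with a median of 0.30, and 4 were higher and 0 lower in 2iL+SA+H against 2iL, with a median of 0.19. Of all genes, 5.46% were higher and 4.95% lower at that level in EpiLC+SA+H against EpiLC, and 0.0436% rose. The shares in 2iL+SA+H against 2iL were 3.33% higher and 1.55% lower. Of 6 metallothionein and metal-response genes, 4 were higher at an unadjusted p under 0.05 (edgeR) and 0 were lower, with a median of 0.92. Mt1, a metal-binding protein gene, had 660, 501, 274 and 369 CPM in EpiLC+SA+H, against 284, 187, 155 and 180 CPM in EpiLC (log2 fold change of 1.16 ± 0.25, SE, with an edgeR adjusted p = 0.0676). The groups overlapped in 1 pair of libraries, and EpiLC+SA was higher still, at 862 to 1550 CPM. Of 25 genes of cholesterol synthesis, 9 were higher at an unadjusted p under 0.05 (edgeR) and 0 were lower, with a median of 0.41. Idi1, Msmo1, Hsd17b7 and Hmgcs1, enzymes of this pathway, had log2 fold changes of 0.99, 0.70, 0.99 and 0.66 (standard errors 0.32, 0.23, 0.33 and 0.25). Without EpiLC+SA+H replicate 4 the number of cholesterol genes higher at that level was 5, and without EpiLC replicate 3 it was 4. DESeq2 had 10 at an unadjusted p under 0.05 and called 0. Without the shallow libraries the number was 8 (edgeR) and the median was 0.24. In that setting 2 members (Hsd17b7 and Idi1) were called higher, against 0.685% of all genes. Of 31 genes of branched-chain amino acid and propionate breakdown, 1 rose (Dbt), 8 were higher and 1 was lower at an unadjusted p under 0.05 (edgeR), with a median of 0.38, and Bckdha, which encodes a subunit of the same complex as Dbt, had a log2 fold change of 0.59 ± 0.22 (SE).

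Of 8 heme synthesis genes, 0 were higher or lower at an unadjusted p under 0.05 (edgeR), with a median of 0.04. Alad, whose enzyme SA inhibits, had 26.1, 23.98, 16.4 and 15.4 CPM in EpiLC+SA+H and 21.6, 35.6, 25.2 and 21.2 CPM in EpiLC (log2 fold change of -0.36 ± 0.22, SE, with an edgeR adjusted p = 0.572). Of 18 genes of iron uptake, storage and export, 2 were higher and 1 lower at an unadjusted p under 0.05 (edgeR), against 5.46% and 4.95% of all genes. Tfrc, the transferrin receptor gene, had 83.3, 97.7, 71.8 and 109 CPM in EpiLC+SA+H, 372 to 420 CPM in EpiLC+SA, and 107, 124, 39.1 and 83.2 CPM in EpiLC. Its log2 fold change in EpiLC+SA+H against EpiLC was 0.03 ± 0.32 (SE, edgeR adjusted p = 0.984).

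**Figure D4:**
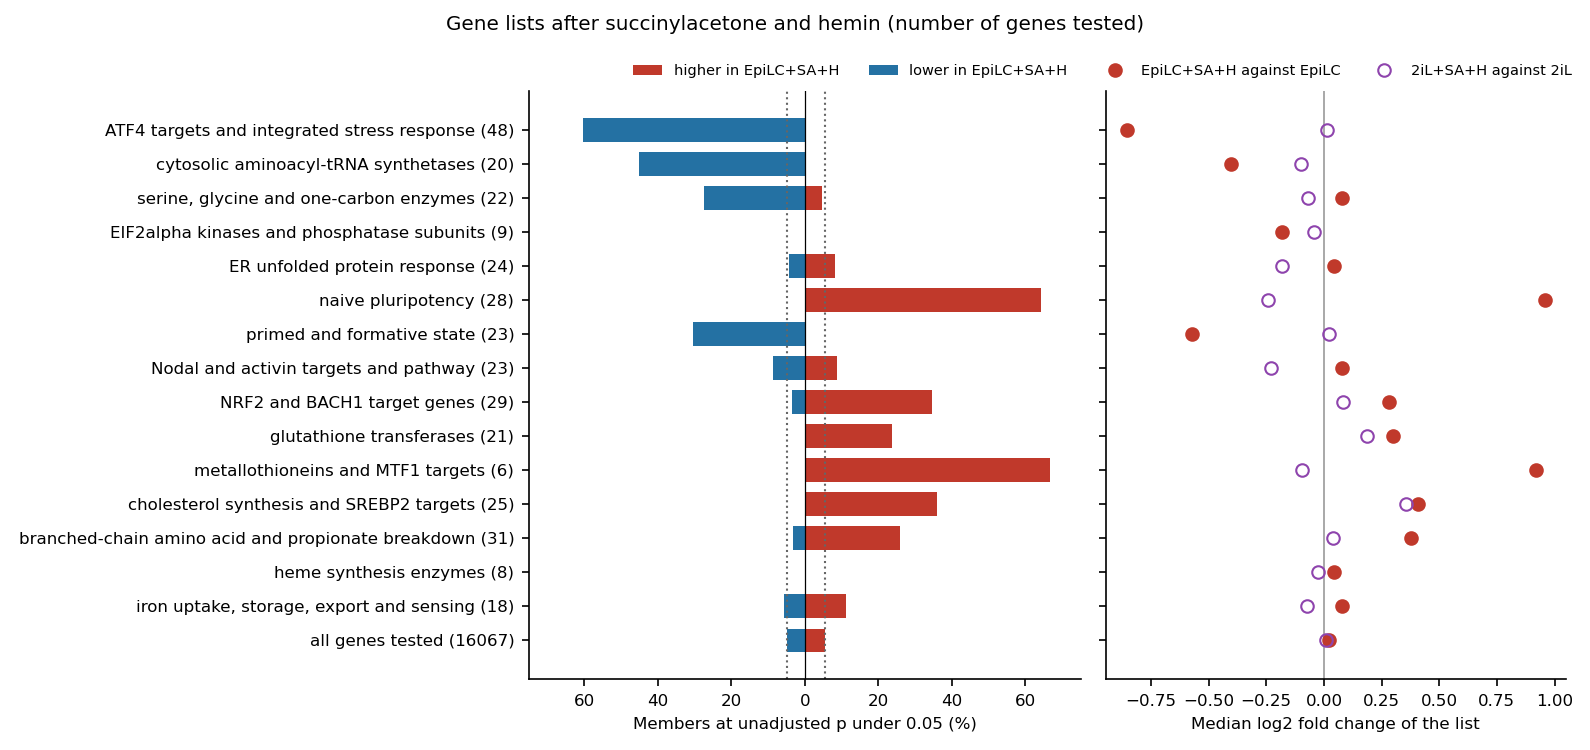
The left panel gives the share of each list's tested genes at an unadjusted p under 0.05 in EpiLC+SA+H against EpiLC, higher to the right and lower to the left, with dotted lines at 5.46% and 4.95% of all genes. The right panel gives the median log2 fold change there (filled) and in 2iL+SA+H against 2iL (open). ATF4 genes have 60.4% lower and naive genes 64.3% higher, and their open circles are at 0.01 and -0.24.

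In naive cells the same treatment was compared in other libraries, which share only the model's estimate of the spread with EpiLC+SA+H against EpiLC. In 2iL+SA+H against 2iL 1 gene was called by edgeR, Utf1, which fell (0.00622% of genes), and at an unadjusted p under 0.05 there were 535 higher (3.33%) and 249 lower (1.55%) genes. Of the 48 ATF4 list genes, 1 was higher and 2 were lower there, with a median log2 fold change of 0.01, and of the 28 naive genes 1 was higher and 3 were lower, with a median of -0.24. Of the 10 genes called in EpiLC+SA+H against EpiLC, 5 had the same sign in naive cells, and of the 46 at an adjusted p under 0.10, 27 had (58.7%), against 52.7% of all genes tested. These 46 genes were chosen on EpiLC+SA+H against EpiLC, and in 2iL+SA+H against 2iL their median absolute log2 fold change was 0.16, against 0.21 over all genes. The 25 cholesterol genes had a median of 0.41 in EpiLC+SA+H against EpiLC and of 0.35 in 2iL+SA+H against 2iL, where 6 were higher and 0 lower at an unadjusted p under 0.05 (edgeR). The ATF4 list varied widely among untreated naive libraries, from 4.96 to 6.01 in mean log2 CPM, a wider range than that of EpiLC+SA+H.

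Whether the change with SA and hemin differed between the 2 states was tested in the same model, as the log2 fold change in EpiLC+SA+H against EpiLC minus that in 2iL+SA+H against 2iL. No gene passed an adjusted p of 0.05 in edgeR (smallest 0.0733, for Gm13580), 17 did in DESeq2, and at an unadjusted p under 0.05 there were 453 positive (2.82%) and 530 negative (3.3%) differences. Of the 48 ATF4 list genes 23 had a negative and 1 a positive difference at that level, and of the 28 naive genes 15 had a positive and 0 a negative one. For cholesterol genes these counts were 1 and 1 of 25. Pck2 had a difference of -1.58 ± 0.49 (SE, edgeR adjusted p = 0.548), Chac1 of -2.23 and Tcl1 of 2.31. These lists and genes had already been seen to shift in EpiLC+SA+H against EpiLC, which is part of the difference. A skew in the same direction follows in part from that choice and is not separate evidence that the states differ.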

How the data were processed

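The counts per gene were made and deposited by the authors. 3′-end (QuantSeq) libraries were read as single ends of 50 bp, checked with FastQC 0.11.7, aligned to mm10 with HISAT2, handled with SAMtools 1.5 and counted with HTSeq (2.7.14, as the submitters' processing notes give it), and reads that mapped to several loci were discarded. Values of 3′-end counts follow transcript number rather than length. The annotation and the strand setting are not given in the sources used here.

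Groups and replicate numbers were taken from the sample labels. The table holds 23762 gene symbols and 24 libraries, no 2 of which are identical. Genes were kept with filterByExpr (minimum count 5), leaving 16067, scaled by TMM and tested in edgeR 4.0.16 (robust quasi-likelihood, R 4.3.3) in 1 model over all 6 groups, with Benjamini-Hochberg adjustment over all genes. Means of log2 CPM used a prior count of 2. The sources used here do not say whether replicates came from separate cultures, so p-values measure the spread between these libraries, which may be technical. DESeq2 1.42.0 was run as an alternative, as were edgeR with DESeq2 size factors, no filter, a minimum count of 10, only the groups compared, a replicate block, and leaving out the shallow libraries or each library in turn. The test was tried on simulated data first. Promoter windows came from RefSeq (GRCm38.p6), and gene positions are those of a GRCm38 annotation, the build to which the reads were aligned. Figures were drawn with matplotlib 3.10.9.

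The genes named are Pck2, the called genes (up to 15 per direction, with groups that do not overlap and 10 CPM or more in 1 group), up to 4 members of each list described with the smallest adjusted p, genes the study discusses, and the genes with the smallest adjusted p in the difference between states. Gene lists are from general knowledge of the pathways. The comparison, the lists and the named genes were chosen with earlier results of these data known. Dlgap3 (overlapping groups), Gm13580 and Hhex and other genes outside this rule were named after their values were seen. 1 called gene is not reported here.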

Additional observations from a re-analysis of the deposited data

Results flagged for a closer look

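Of 68 groups of 4 libraries examined for genes and lists of the text, 9 had a library whose gap to the nearest other was past Dixon's critical value as a share of the group's range, and chance flags about 1 in 20. EpiLC+SA+H replicate 1, a shallow library, stood apart with 94.4 CPM of Hmox1, where the other 3 had 11.6 to 13.2 CPM, and with 100.7 CPM of Slc48a1, where the others had 36.9 to 47.5 CPM. EpiLC replicate 3, also shallow, had 1105 CPM of Atf4 (others 386.5 to 483.9), 132 CPM of Klf4 (others 6.69 to 17.2) and 6.58 CPM of Dlgap3 (others 2.26 to 2.7). EpiLC replicate 2 had a mean log2 CPM of 3.63 over the naive pluripotency list, against 5.07 to 5.21 in the others. EpiLC+SA+H replicate 3 had 122.7 CPM of Tcl1 (others 30.5 to 39.3), and EpiLC+SA+H replicate 4 had a mean log2 CPM of 6.60 over the cholesterol list (others 6.29 to 6.34). EpiLC replicate 4 had 36.6 CPM of Gstm1 (others 24.4 to 25.8).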

How the results depend on the processing

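The count of called genes in EpiLC+SA+H against EpiLC, 10 with edgeR on all libraries, was 126 with DESeq2, 210 without the shallow libraries, 0 with only the groups compared, and 0 to 45 with each library left out (9 with DESeq2 size factors, 15 with no filter, 14 at a minimum count of 10). With a replicate block it was 0. Deviations of same-numbered libraries correlated at -0.19, 0.10, 0.06 and 0.40, and 3 of 4 EpiLC+SA+H libraries correlated best with their own number. These values do not settle whether the numbers pair the libraries. In 2iL+SA+H against 2iL it was 1, and 6 with DESeq2, 3 without the shallow libraries, 0 with only the groups compared, and 0 to 1 with each library left out (0 without 2iL+SA+H replicate 2). For the difference between the states it was 0, and 17 with DESeq2, 5 without the shallow libraries, and 0 to 1 with each library left out.

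No alternative was run for Cth, Cdsn, Mkrn1, Utf1, Tfap2c and Dppa3. Of the other genes named, 5 turned direction and none of these passed the threshold in either direction. Without the shallow libraries the log2 fold change was 1.21 for Klf4, -0.16 for Tfrc, -0.745 for Hmox1 and 0.089 for Bach1. With each library left out it ran from -1.04 to 1.22 for Klf4, from -0.20 to 0.27 for Tfrc, from -1.03 to 0.60 for Hmox1, from -0.38 to 0.15 for Bach1 and from -0.0099 to 0.33 for Nodal. With only the groups compared, members past an unadjusted p of 0.05 (edgeR) numbered 25 for ATF4, 7 for tRNA synthetase, 12 for naive, 4 for primed, 6 for NRF2 and 5 for cholesterol genes. The share of all genes past that level was not worked out for this fit, so these counts have no background beside them. Apart from the alternatives named, the cause was not tested. Depth limits genes of low count such as Gm13580, Dlgap3 and Hhex, and with a median standard error of 0.35 on the log2 scale many changes of moderate size could not be detected.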
